A study of Drosophila melanogaster with 25 samples.

Results

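The comparison set 2 mutant alleles of one ribosomal protein gene directly against each other in the wing imaginal disc, the larval epithelium that forms the adult wing and notum of Drosophila melanogaster. It took 4 of the 19 RNA sequencing libraries of the series, namely the 2 libraries labelled RpS3star and the 2 labelled RpS3, and covered every gene, not a chosen subset. The RpS3star larvae had the genotype FRT82B, RpS3*/+ and the RpS3 larvae the genotype FRT82B, RpS3[Plac92], ubi-GFP/+. Both were therefore heterozygous for RpS3 and carried an FRT82B chromosome, whereas the ubi-GFP transgene was present only with Plac92. The other libraries mainly set beside them were the 3 RpS3puc libraries, whose larvae combined an FRT82, RpS3[Plac92], ubi-GFP chromosome with esg-Gal4, UAS-GFP and UAS-Puc, and so overexpressed the JNK phosphatase Puckered in the domain of esg-Gal4, and the 8 WT libraries, of which 6 were labelled yw and 2, WT5 and WT6, FRT82, ubi-GFP. The 2 mahj libraries, from larvae homozygous for an FRT42D, mahj chromosome with hs-FLP and stauGFP, and the 2 RpS15 libraries, from FRT42D, M(2)53[1]/+ larvae, are given beside single genes and enter the fits of all 19 libraries. Each sample pooled 50 discs of wandering late larvae raised at 25 °C. The labels gave neither the sex of the larvae nor whether the replicates came from separate cultures, so the p-values below measure the spread between these libraries only, which may be technical.

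RpS3 encodes a protein of the small ribosomal subunit. Flies with a single working copy of such a gene are viable but develop slowly and have thin bristles, the Minute phenotype, and Minute cells that lie beside wild-type cells in a mosaic epithelium are eliminated by cell competition, which is why they are called losers. Plac92 is a P-element insertion allele and RpS3* another mutant allele, whose lesion is not given in the sources used here. The comparison asked what differed between discs heterozygous for separate mutant alleles of the same gene.

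The values were FPKM, read counts scaled to transcript length and to the mapped reads of the library. In the 4 compared libraries the low values fell on whole-read steps, which implied between 15716349 and 16231950 reads per library, so that a single read equalled 0.0616 to 0.0636 FPKM for a 1 kb transcript. The Spearman correlation across genes was 0.994 between the RpS3* libraries, 0.996 between the RpS3 libraries and 0.984 to 0.991 between libraries of different alleles. Wing disc markers were expressed as the label says: the 7 markers that were tested summed to 357 and 349 FPKM in the RpS3* libraries, against 313 and 320 FPKM in the RpS3 libraries. One library of the series stood apart from its label. The library labelled WT4, of genotype yw, contained 26.3 FPKM of white, against 0 to 0.0547 FPKM in the other yw libraries, so the counts against WT below are given with and without it.

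RpS3 mRNA was lower than in WT discs with both alleles, by about the same amount. RpS3 (chromosome 3R, 23358812 to 23360207 in BDGP6.54) stood at 1262 and 1296 FPKM in the RpS3* libraries, against 1344 and 1314 FPKM in the RpS3 libraries, while the RpS3puc libraries had 1264 to 1366 FPKM and the WT libraries 2057 to 3023 FPKM. Every library with a mutant RpS3 allele lay below every WT library, but so did the 2 RpS15 libraries, at 1630 and 1648 FPKM, whose label lists no RpS3 allele. The mahj libraries, at 2627 and 2569 FPKM, lay within the range of WT. Against WT, the difference in log2(FPKM + 1), the scale used for all differences here, was -0.93 in RpS3* discs (limma, adjusted p = 0.00043) and -0.88 in RpS3 discs (adjusted p = 0.0011), and without WT4 it was -0.94 and -0.88. Between the alleles it was -0.05 ± 0.052 (SE, n = 2 each) with an adjusted p of 0.61. No difference in RpS3 mRNA between the alleles was detectable with 2 libraries each.

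Genes were tested where 2 or more of the 4 libraries reached 1 FPKM. Of these 7837 genes, 472 (6.02%) differed between the alleles at an adjusted p under 0.1 by limma, the moderated linear model fitted across all of them. Among these, 228 (2.91%) were higher and 244 (3.11%) lower in RpS3* discs. Most differences were small, with a median size of 0.47 on the log2 scale among called genes, and only 76 genes (31 higher, 45 lower) differed by at least 1. The 20 that differed by at least 2 comprised 4 higher and 16 lower genes. In all 472 genes the libraries of one allele did not overlap those of the other, which was also the case for 4087 of all genes tested (52.2%). Against WT, the same threshold called 1840 of 8067 genes (22.8%) in RpS3* discs and 1498 of 8053 (18.6%) in RpS3 discs, and without WT4 it called 1462 and 1179. The count between the alleles differed with the libraries in the fit: 79 genes were called when all 19 libraries shared one fit, 45 when the 8 WT libraries were added (55 without WT4), and leaving out 1 of the 4 libraries gave 862 genes without RpS3* replicate 1, 222 without RpS3* replicate 2, 149 without RpS3 replicate 1 and 95 without RpS3 replicate 2. Allele, transgene and stock background cannot be told apart in this design. The direct fit, the fit of 19 and the fit with WT shared 37 called genes (20 higher and 17 lower in RpS3* discs). Most are marked below as called in all 3 fits, and CG14072, GstD4, GstD5, Cpr47Eb, Damm, CG6357, CG34002, CG15047, Pus7, c-cup and a gene listed only as FBgn0038035 belong to them too.

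**Figure D1:**
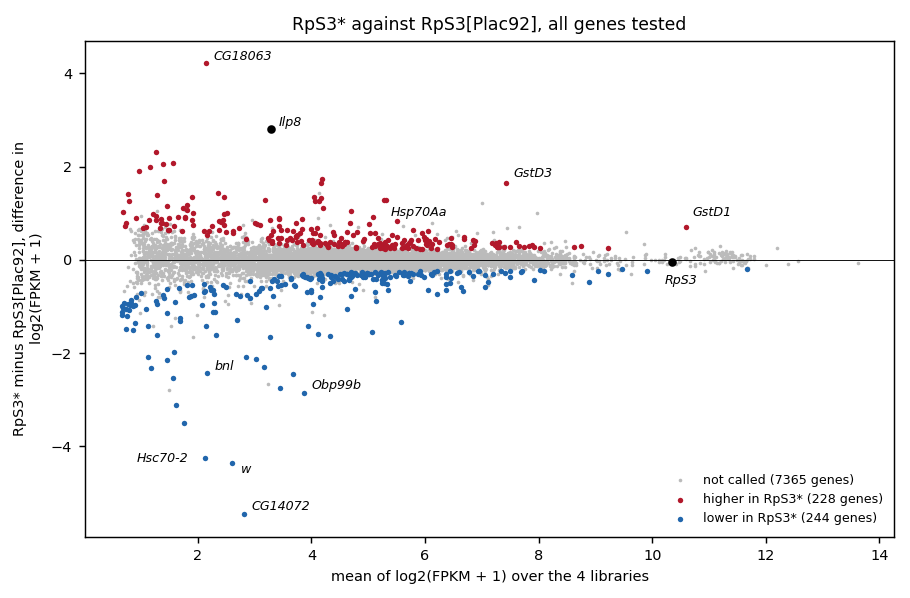
Difference between the alleles (RpS3* minus RpS3[Plac92], in log2(FPKM + 1)) against the mean log2(FPKM + 1) of the 4 libraries, 1 point per gene. Red points are the 228 genes called higher in RpS3* discs, blue points the 244 called lower, grey points those not called, and black points RpS3 (-0.05) and Ilp8 (2.81), neither called.

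The marker genes of the stocks separated the alleles. The eye pigment transporter gene white (w), a copy of which marks many transgenes, was at 0.448 and 0.244 FPKM in the RpS3* libraries, against 26.0 and 26.8 FPKM in the RpS3 libraries (difference -4.35 ± 0.13, SE, adjusted p = 1.7e-06). The RpS3puc libraries contained 127 to 137 FPKM, and WT5 and WT6 24.8 and 29.2 FPKM. Among these groups, high white thus went with the libraries whose label lists ubi-GFP, with WT4 as the exception. It did not go with every listed transgene: the mahj libraries, labelled with hs-FLP and stauGFP, had 0.224 and 0.827 FPKM of white. The body pigment gene yellow (y) did not exceed 0.0912 FPKM in any of the 4 libraries. rosy (ry), which encodes xanthine dehydrogenase, was at 5.19 and 6.63 FPKM in the RpS3* libraries, against 2.98 and 2.77 FPKM in the RpS3 libraries (0.83 ± 0.15, adjusted p = 0.026). Both alleles were above the yw libraries, none of which exceeded 0.495 FPKM, while WT5 and WT6, with 2.27 and 2.66 FPKM, lay close to the RpS3 libraries.

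Several of the largest differences were close to on and off. CG14072, an annotated gene without a function known here, was at 0 and 0.122 FPKM in the RpS3* libraries, against 51.9 and 39.8 FPKM in the RpS3 libraries, where its difference of -5.45 ± 0.15 was the largest of all genes tested (adjusted p = 1.7e-06). The RpS3puc libraries, which carried the same Plac92 allele, had at most 0.167 FPKM of it and the WT libraries at most 0.0876 FPKM. The mahj libraries had 2.02 and 0 FPKM and the RpS15 libraries 0.58 and 0.0871 FPKM. The RNA was thus high in the 2 RpS3 libraries and not with the allele in general. CG18063 showed the opposite: 15.5 and 21.1 FPKM in the RpS3* libraries, against 0.0487 and 0 FPKM in the RpS3 libraries (4.22 ± 0.17, adjusted p = 1.1e-05). It was at 0 in the 3 RpS3puc libraries but at 39.6 and 29.2 FPKM in the 2 mahj libraries, mutants of an unrelated gene.

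Genes on in RpS3* discs and near 0 in RpS3 discs formed a short list. Dic61B, a dynein intermediate chain gene, was at 3.87 and 4.87 FPKM in the RpS3* libraries, against 0.378 and 0.187 FPKM in the RpS3 libraries (2.06, adjusted p = 0.00087). blanks, which encodes a double-stranded RNA-binding protein of the male germline, was at 3.71 and 3.16 FPKM, against 0.196 and 0.0486 FPKM (1.98, adjusted p = 0.001). RabX2, a small GTPase gene, was at 2.19 and 3.46 FPKM in the RpS3* libraries and at 0 in both RpS3 libraries. For these genes the WT libraries resembled RpS3 discs, with at most 0.408 FPKM of Dic61B, 0.372 FPKM of blanks and 0.0819 FPKM of RabX2. In the mahj libraries blanks was on as well, at 2.70 and 4.81 FPKM, whereas Dic61B was at 0.377 and 0.197 FPKM and RabX2 at 0. The spermatocyte regulators aly and can were at or near 0 throughout, with at most 0.0216 FPKM of can in RpS3* discs and 0.0417 FPKM in RpS3 discs. CG11786 was at 5.49 and 3.40 FPKM in the RpS3* libraries, against 0 and 0.16 FPKM (2.31, adjusted p = 0.0014), and dpr18, a gene for a neuronal cell surface protein, was at 1.72 and 1.89 FPKM, against 0.0236 and 0.0703 FPKM (1.42, adjusted p = 0.0072). All 6 of these, CG18063 included, were called in all 3 fits, as were sick and sturkopf below. CG13053, CG41284 and the muscle actin gene Act79B, with differences of 1.73, 1.42 and 1.68, were higher in RpS3* discs too. The WT libraries spanned the levels of both alleles for CG13053 (7.40 to 42.2 FPKM). CG41284, at 7.21 and 7.53 FPKM in the RpS3* libraries, was above every WT library there (at most 6.53 FPKM, and 3.04 FPKM without WT4), whereas Act79B, at 0.472 and 0.47 FPKM in the RpS3 libraries, was below every WT library there (at least 1.18 FPKM).

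**Figure D2:**
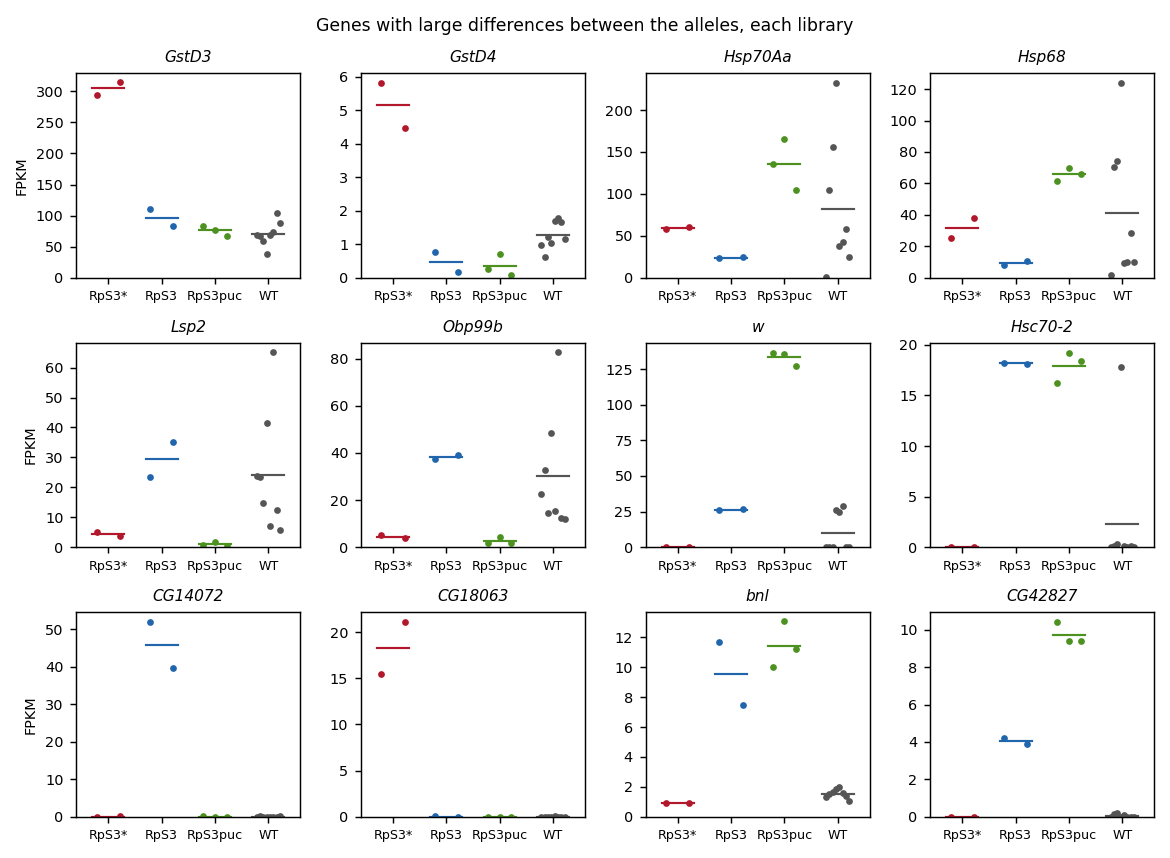
FPKM of 12 genes in each library of 4 groups, from left to right RpS3*, RpS3[Plac92], RpS3puc and WT. Points are libraries, horizontal lines group means and every axis starts at 0. GstD3 and CG18063 were high only in RpS3* libraries among these groups, CG14072 only in RpS3 libraries, and Hsc70-2, white, bnl and CG42827 in RpS3 and RpS3puc libraries, with some WT libraries also high for Hsc70-2 and white.

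Among genes lower in RpS3* discs, a set was on in RpS3 and RpS3puc discs alike. Hsc70-2, a cytosolic Hsp70 cognate gene, was listed at 0 in both RpS3* libraries, against 18.2 and 18.1 FPKM in the RpS3 libraries and 16.2 to 19.3 FPKM with RpS3puc (difference -4.26 ± 0.13, adjusted p = 1.7e-06; its size rests on the added 1 FPKM). Its neighbour CG31157 was at 0.0468 and 0.0483 FPKM, against 9.59 and 6.72 FPKM (-3.11, adjusted p = 0.00012). WT4 was the only WT library in which either was above 0.314 FPKM, with 17.8 FPKM of Hsc70-2 and 9.68 FPKM of CG31157. branchless (bnl), the fibroblast growth factor that guides tracheal branches, was at 0.939 and 0.897 FPKM in the RpS3* libraries, against 11.7 and 7.50 FPKM in the RpS3 libraries (-2.43 ± 0.19, adjusted p = 0.00058). RpS3puc discs had 10.1 to 13.1 FPKM of bnl and WT discs 1.06 to 2.00 FPKM, so that the 2 RpS3* libraries lay just below the lowest WT library and the Plac92 libraries well above the highest. CG42827, the called gene nearest to RpS3, was at 0 in both RpS3* libraries, against 4.19 and 3.87 FPKM, with 9.39 to 10.4 FPKM in RpS3puc discs and at most 0.223 FPKM in WT discs. Or98a, an odorant receptor gene, was at 0, against 2.45 and 1.24 FPKM, and at 6.87 to 9.88 FPKM in RpS3puc discs. bnl, CG42827 and Or98a were called in all 3 fits.

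Another set was on in the RpS3 libraries, low in those of RpS3* and lower in those of RpS3puc than in the RpS3 libraries. Proc-R, the receptor gene for the neuropeptide proctolin, was at 0.336 and 0.135 FPKM in the RpS3* libraries, against 6.51 and 5.74 FPKM in the RpS3 libraries (-2.53 ± 0.17, adjusted p = 0.00018), with 0.888 to 0.965 FPKM in RpS3puc discs. The neighbouring cytochrome P450 genes Cyp6g2 and Cyp6t3 behaved alike: Cyp6g2 was at 0.28 and 0.32 FPKM, against 5.15 and 4.40 FPKM, and Cyp6t3 at 0.366 and 0.639 FPKM, against 5.28 and 4.55 FPKM. Both were also high in the RpS15 libraries, at 5.13 and 4.63 FPKM for Cyp6g2 and 6.17 and 5.03 FPKM for Cyp6t3. CG8850, on the same arm but apart from them (2R, from 12298747, where Cyp6t3 ends at 12192436), was at 0 and 0.12 FPKM, against 3.24 and 3.78 FPKM. The RpS15 libraries had 1.89 and 2.60 FPKM of CG8850. Cyp6a17, a P450 gene with a close paralogue in Cyp6a23 to which reads can be misassigned, was at 0 in both RpS3* libraries, against 9.93 and 10.6 FPKM. It remained on in RpS3puc discs, at 2.53 to 3.26 FPKM, and was on in the RpS15 libraries, at 2.49 and 2.65 FPKM, and in WT4, at 4.99 FPKM. Proc-R, Cyp6g2, Cyp6t3, CG8850 and Cyp6a17 were called in all 3 fits, whereas Cyp6a23, with a difference of -1.04 (adjusted p = 0.034), was not.

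Smaller differences between well-expressed genes held across the settings too. In all 11 genes were called under every alternative setting planned for the comparison, namely GstD3, sick, CG42259, sturkopf, CG10916, CG14715, CG4594, CG10353, CG3603, CG32354 and CG7966. Some of these are described here, chosen after their values were seen. Genes that reached 1 FPKM in a single allele only, such as CG14072 and CG18063, could not be among the 11. They were no longer tested once a library of that allele was left out, so their absence does not show a less stable difference. sick, which encodes the actin regulator Sickie, was at 41.4 and 50.0 FPKM in the RpS3* libraries, against 26.0 and 21.3 FPKM in the RpS3 libraries (0.92 ± 0.12, adjusted p = 0.018), with WT at 8.97 to 11.8 FPKM. sturkopf, whose product sits on lipid droplets, was at 64.5 and 55.8 FPKM, against 32.1 and 34.0 FPKM (0.84 ± 0.083, adjusted p = 0.0015), and WT libraries resembled RpS3 discs at 31.2 to 43.2 FPKM. CG10916 was at 40.9 and 41.7 FPKM, against 26.5 and 21.2 FPKM (0.78, adjusted p = 0.0087). CG14715, CG4594 and CG10353 were lower in RpS3* discs, by differences of -0.74, -0.77 and -0.88. CG10353 was at 23.7 and 26.2 FPKM in the RpS3* libraries, against 52.3 and 41.9 FPKM, while the RpS3puc libraries at 20.5 to 25.1 FPKM lay with RpS3* and not with the allele they carried.

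Glutathione S-transferases, above all those of the GstD cluster, were mostly higher in RpS3* discs where they were called. These enzymes conjugate glutathione to electrophiles, and of 35 genes on the list 25 were tested, of which 7 were higher and 2 lower in RpS3* discs (36.0% called, against 6.02% of all genes), with a median difference of 0.17. Of the 7, GstD2, GstD4 and GstD5 reached 1 FPKM only in the RpS3* libraries. They passed the filter only through the group where they were high, which raises the share called. GstD1, the most abundant, was at 1957 and 1965 FPKM in the RpS3* libraries, against 1206 and 1204 FPKM in the RpS3 libraries, 1298 to 1586 FPKM in RpS3puc discs and 748 to 1120 FPKM in WT discs (0.70 ± 0.05, adjusted p = 0.00028). Every RpS3* library was above every other library of these groups. GstD3 was at 294.5 and 315 FPKM, against 110.2 and 83.5 FPKM (1.66 ± 0.14, adjusted p = 0.0069), and here the RpS3 libraries overlapped the WT libraries at 38.5 to 104 FPKM. The low-abundance members of the cluster shared the direction: GstD4 was at 5.81 and 4.48 FPKM, against 0.771 and 0.17 FPKM (2.09, adjusted p = 0.003), GstD5 at 2.80 and 3.03 FPKM, against 0.74 and 0.293 FPKM (1.38, adjusted p = 0.0092), and GstD2 at 2.96 and 3.30 FPKM, against 0.762 and 0.924 FPKM (1.16, adjusted p = 0.0089). GstD10 was the sixth of the cluster to be called, at 2.58 and 2.23 FPKM, against 1.01 and 0.93 FPKM (0.79, adjusted p = 0.044). Not all expressed GstD genes were higher: GstD9, at 44.3 and 45.4 FPKM, against 48.6 and 40.4 FPKM, was not called (0.02, limma adjusted p = 0.94). These genes are paralogues in tandem, so that reads shared between copies could be credited to the wrong member.

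The epsilon class of the family was mixed. GstE1 was at 74.6 and 87.9 FPKM in the RpS3* libraries, against 54.5 and 50.1 FPKM in the RpS3 libraries (0.62, adjusted p = 0.01), and GstE8 was lower, at 10.4 and 11.6 FPKM, against 19.8 and 16.8 FPKM (-0.68, adjusted p = 0.013). GstE6, which was at 1.28 to 3.97 FPKM in WT discs, was at 203 and 235.5 FPKM in the RpS3* libraries and at 168 and 110.3 FPKM in the RpS3 libraries, a difference of 0.68 ± 0.26 that did not pass (adjusted p = 0.32). GstE5 and GstE7 had differences of 0.56 and 0.50 with adjusted p of 0.33 and 0.31. GstO3, of the omega class, was lower in RpS3* discs (-0.44, adjusted p = 0.043). Among 24 tested cytochrome P450 genes 3 were higher, led by Cyp4e2 (0.79) and Cyp9f2 (0.72), and 5 lower (33.3% called, against 6.02% of all genes), and the median difference was -0.0067. Of the 5 lower genes, Cyp6a17, Cyp6g2, Cyp6t3 and Cyp6a23 reached 1 FPKM only in the RpS3 libraries. They passed the filter only through the group where they were high, which raises the share called. Cyp4e2 was at 11.1 and 8.30 FPKM in the RpS3* libraries, against 4.94 and 5.29 FPKM. Of 9 tested UDP-glycosyltransferases Ugt49C1 and Ugt302C1 were higher and Ugt317A1 lower (33.3% called). Ugt49C1 likewise reached 1 FPKM only in the RpS3* libraries, where it was high.

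CncC, the fly orthologue of Nrf2, drives oxidative stress genes and is held down by Keap1. Neither gene was called between the alleles: cnc was at 26.4 and 27.9 FPKM in the RpS3* libraries and at 23.3 and 26.2 FPKM in the RpS3 libraries (adjusted p = 0.42), and Keap1 at 7.08 and 6.99 FPKM and at 7.85 and 7.13 FPKM (adjusted p = 0.72). Of the 18 genes of this list 4 were higher and none lower in RpS3* discs (22.2% called, against 6.02% of all genes), namely GstD1, the peroxiredoxin gene Prx6b (0.63), the autophagy receptor gene ref(2)P and the thioredoxin reductase gene Trxr1. ref(2)P was at 75.0 and 68.5 FPKM, against 58.9 and 54.8 FPKM (0.33, adjusted p = 0.056), and Trxr1 at 251 and 277 FPKM, against 221 and 201 FPKM (0.32, adjusted p = 0.066). The ecdysone response and disc staging list, which bears on the age of the discs, had 1 gene of 15 called (6.67%, about the share of all genes). This was the lactate dehydrogenase gene Ldh (0.65, adjusted p = 0.014). The list summed to 1601 and 822 FPKM in the RpS3* libraries, 1135 and 1364 FPKM in the RpS3 libraries and 2042 to 3678 FPKM in WT. With this spread within RpS3* discs, the few calls do not show that the discs matched in age.

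The called genes of JNK and JAK/STAT signalling were all higher in RpS3* discs, by modest amounts. The JNK pathway is a stress kinase cascade, and of its 21 members and targets 4 were higher and none lower, where 2.91% of all genes were higher, with a median difference of 0.13. Its target and inhibitor puc was at 18.9 and 18.9 FPKM in the RpS3* libraries, against 13.0 and 15.0 FPKM in the RpS3 libraries (0.41 ± 0.089, adjusted p = 0.05), where the WT libraries at 10.7 to 17.7 FPKM overlapped the RpS3 libraries. Gadd45, a stress-inducible gene, was at 82.7 and 83.0 FPKM, against 61.9 and 59.4 FPKM (0.44 ± 0.063, adjusted p = 0.0092), and both alleles were far above WT at 8.82 to 16.4 FPKM. The proapoptotic gene reaper (rpr) was at 35.6 and 42.1 FPKM, against 26.6 and 24.8 FPKM (0.57 ± 0.09, adjusted p = 0.016), and the transcription factor gene Ets21C at 2.06 and 2.72 FPKM, against 1.18 and 0.726 FPKM (0.80 ± 0.19, adjusted p = 0.076). These 4 were called in the direct fit and not in the fit of 19 libraries, where their adjusted p was 0.39 to 0.57.

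The JAK/STAT pathway transmits the signal of the cytokines upd1 and upd3 and induces its own inhibitor Socs36E. Of 9 tested genes 2 were higher and none lower (22.2% called, against 6.02% of all genes, median 0.21). upd1 was at 6.75 and 8.0 FPKM in the RpS3* libraries, against 4.32 and 4.06 FPKM in the RpS3 libraries and 2.67 to 3.88 FPKM in WT discs (0.69 ± 0.13, adjusted p = 0.029), and it was called in all 3 fits. Socs36E was at 40.3 and 42.8 FPKM, against 31.5 and 27.8 FPKM, with WT at 19.3 to 23.2 FPKM (0.48 ± 0.079, adjusted p = 0.021). upd3 was at 2.26 and 2.52 FPKM in the RpS3* libraries and at 1.65 and 0.916 FPKM in the RpS3 libraries, without overlap but short of the threshold (0.59, adjusted p = 0.17).

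Ilp8, the insulin-like peptide with which damaged or growth-disturbed discs delay metamorphosis, had the largest mean difference among the stress genes. Its 21.2 and 29.4 FPKM in the RpS3* libraries stood against 4.23 and 1.63 FPKM in the RpS3 libraries, 1.23 to 1.96 FPKM in RpS3puc discs and 0.0747 to 0.408 FPKM in WT discs. High Ilp8 was not particular to RpS3* discs, since the mahj libraries had 175.9 and 18.1 FPKM. Because the RpS3 libraries themselves differed 2.59-fold, the difference of 2.81 ± 0.45 had an adjusted p of 0.12 in the direct fit, against 0.071 with all 19 libraries and 4.5e-05 with the WT libraries. Each allele alone was above WT, by 4.43 in RpS3* discs (adjusted p = 2e-09) and by 1.63 in RpS3 discs (adjusted p = 0.00068), and by 4.41 and 1.61 without WT4.

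**Figure D3:**
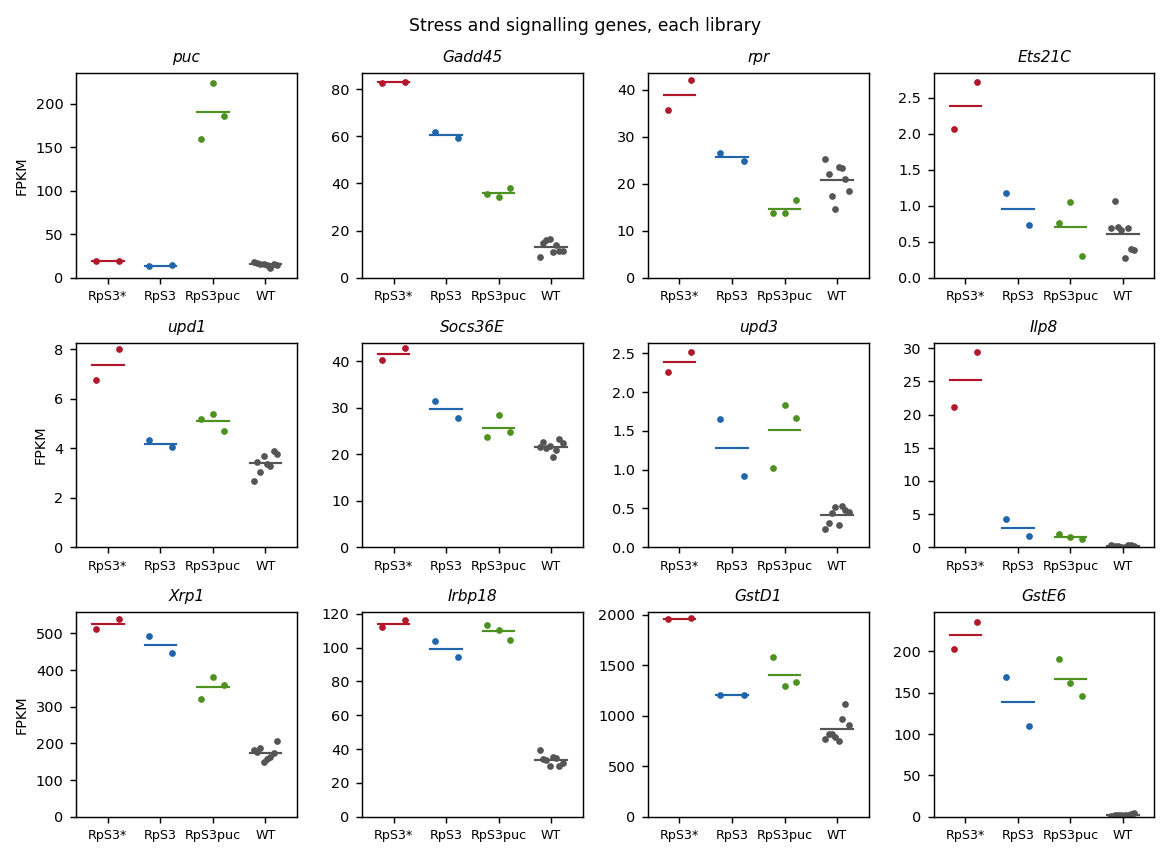
FPKM of 12 stress and signalling genes in each library of the groups RpS3*, RpS3[Plac92], RpS3puc and WT, from left to right. Points are libraries, horizontal lines group means and every axis starts at 0. GstD1, upd1, Socs36E, rpr and Gadd45 were higher in both RpS3* libraries than in any other library shown, Xrp1, Irbp18 and GstE6 were high in both alleles against WT and were not called between them, and puc in RpS3puc libraries includes the transgene.

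The transcription factor genes Xrp1 and Irbp18, known as mediators of the loser state of Minute cells, were high in both alleles. Xrp1 was at 511 and 538 FPKM in the RpS3* libraries and at 492 and 446.5 FPKM in the RpS3 libraries, against 149.9 to 207 FPKM in WT discs, and the difference between the alleles of 0.16 ± 0.067 did not pass (adjusted p = 0.25). Irbp18, its heterodimer partner, was at 112 and 117 FPKM and at 104 and 94.6 FPKM (0.20 ± 0.07, adjusted p = 0.19). In the list of 12 genes around Xrp1 and the integrated stress response only the eIF2alpha kinase gene Gcn2 was called (8.33%, against 6.02% of all genes), lower in RpS3* discs (-0.33, adjusted p = 0.063). CG15784 was likewise far above WT in both alleles (10.7 to 20.9 FPKM in WT) and did not separate them, at 303 and 362 FPKM in the RpS3* libraries and 354 and 271 FPKM in the RpS3 libraries. Traf4, an adaptor of JNK signalling, was at 21.8 and 24.5 FPKM and at 19.9 and 14.7 FPKM (0.41, adjusted p = 0.21), and hid, a proapoptotic partner of rpr, at 46.5 and 43.3 FPKM and at 36.6 and 39.3 FPKM (0.24, adjusted p = 0.13). The serpin gene Spn100A differed more within RpS3* discs (40.1 and 7.06 FPKM) than between the alleles.

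The study's own list of loser signature genes was chosen on these samples and is not independent evidence. Of its 409 tested genes 57 were higher and 7 lower in RpS3* discs (15.6% called, against 6.02% of all genes), with a median difference of 0.13. The 289 of them whose mean was above WT in both alleles had 48 higher and 5 lower genes and a median of 0.18, and 232 had a difference above 0. The 107 below WT in both alleles had 2 higher and 1 lower gene, a median of -0.12 and 74 differences below 0.

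Set against WT, the called genes fell into different kinds. Of the 228 genes higher in RpS3* discs 214 were tested in all comparisons: 79 were above WT in RpS3* discs only, 21 below WT in RpS3 discs only, 53 on the same side of WT in both alleles, 1 on opposite sides, and 60 in neither allele past the threshold. Of 228 tested genes lower in RpS3* discs 64 were above WT in RpS3 discs only, 38 below WT in RpS3* discs only, 10 on the same side, 3 on opposite sides and 113 in neither. Without WT4 the 79 and 64 became 82 and 61, and those in neither became 66 and 124. The comparisons with WT share the WT libraries, and a gene past the threshold in one allele only is not shown by that to differ between them.

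Heat shock genes were split. Of 19 tested 8 were higher and 2 lower in RpS3* discs (52.6% called, against 6.02% of all genes, median 0.26), and 7 of the 8 were inducible Hsp70 copies or Hsp68. The list did not hold Hsc70-2, which was lower by far more than any of its members (-4.26). Hsp70Aa was at 58.3 and 60.3 FPKM in the RpS3* libraries, against 23.03 and 24.5 FPKM in the RpS3 libraries (1.29 ± 0.068, adjusted p = 6.4e-05), and Hsp68 at 25.0 and 37.8 FPKM, against 8.16 and 10.3 FPKM (1.64 ± 0.24, adjusted p = 0.068). The eighth was the small mitochondrial heat shock gene Hsp22, at 13.2 and 13.0 FPKM, against 5.57 and 4.11 FPKM (1.28, adjusted p = 0.002). The Hsp70 copies are nearly identical, so that their values are not separate measurements. Their levels varied far more across WT libraries, where Hsp70Aa was at 0.837 to 232 FPKM (at most 156 FPKM without WT4), and at 104 to 165 FPKM in RpS3puc discs, and no Hsp70 copy was called once WT libraries entered the fit (adjusted p = 1 for Hsp70Aa). The chaperone gene Hsp83 was lower in RpS3* discs, at 867 and 900 FPKM, against 1042 and 1036 FPKM (-0.23, adjusted p = 0.061), and so was the mitochondrial Hsc70-5 (-0.26, adjusted p = 0.085).

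Markers of the larval fat body, the tissue that makes the storage proteins of the haemolymph and lies close to the discs, were lower in the RpS3* than in the RpS3 libraries but did not follow the Plac92 allele. Of its 6 markers 5 were lower in RpS3* discs and none higher (83.3% called, against 6.02% of all genes), with a median difference of -2.29. Their summed level was 23.3 and 17.6 FPKM in the RpS3* libraries, against 119 and 140.2 FPKM in the RpS3 libraries. RpS3puc libraries, with the same Plac92 allele as the RpS3 libraries, had 4.85 to 8.98 FPKM, below both, and WT libraries 34.9 to 318 FPKM, with a median of 88.5 FPKM. Lsp2, a storage protein gene, was at 5.22 and 3.77 FPKM, against 23.6 and 35.1 FPKM (-2.45, adjusted p = 0.021), and Fbp2 at 3.74 and 2.78 FPKM, against 22.6 and 33.1 FPKM (-2.74, adjusted p = 0.005). With all 19 libraries in the fit, the adjusted p was 0.77 for Lsp2 and 0.47 for Fbp2. Obp99b, an odorant-binding protein gene, was at 5.25 and 3.73 FPKM, against 37.6 and 39.2 FPKM (-2.86 ± 0.13, adjusted p = 6.4e-05), and CG34166 at 2.66 and 3.49 FPKM, against 14.7 and 24.1 FPKM. Replicates of one genotype also differed widely elsewhere in the series: Lsp2 was at 352 and 15.8 FPKM in the mahj libraries and at 22.2 and 129 FPKM in the RpS15 libraries. Obp99b was at 257 and 6.40 FPKM and CG34166 at 348 and 7.76 FPKM in the mahj libraries. In whole discs fewer cells of a type and less RNA per cell cannot be told apart, and the part of fat body RNA in the other genes lower in RpS3* discs was not tested. Fbp1 had 3.91 and 1.85 FPKM in the RpS3* libraries and 13.9 and 36.5 FPKM in the RpS3 libraries, a difference of -2.66 that did not pass (adjusted p = 0.26).

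Other tissues gave less. The haemocyte markers, the blood cell genes, summed to 1.71 and 1.40 FPKM in the RpS3* libraries, against 3.39 and 8.71 FPKM in the RpS3 libraries, and Pxn, the 1 of 6 that was tested, was lower (-1.06, adjusted p = 0.077). Pxn passed the filter only through the RpS3 libraries, where it was high. Salivary gland glue genes varied within each allele, at 3.97 and 25.1 FPKM in the RpS3* libraries and at 25.7 and 2.76 FPKM in the RpS3 libraries. Myoblast, tracheal, larval muscle, salivary gland and neuron markers had no called gene by limma, and at an unadjusted p under 0.05 only 1 larval muscle gene.

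**Figure D4:**
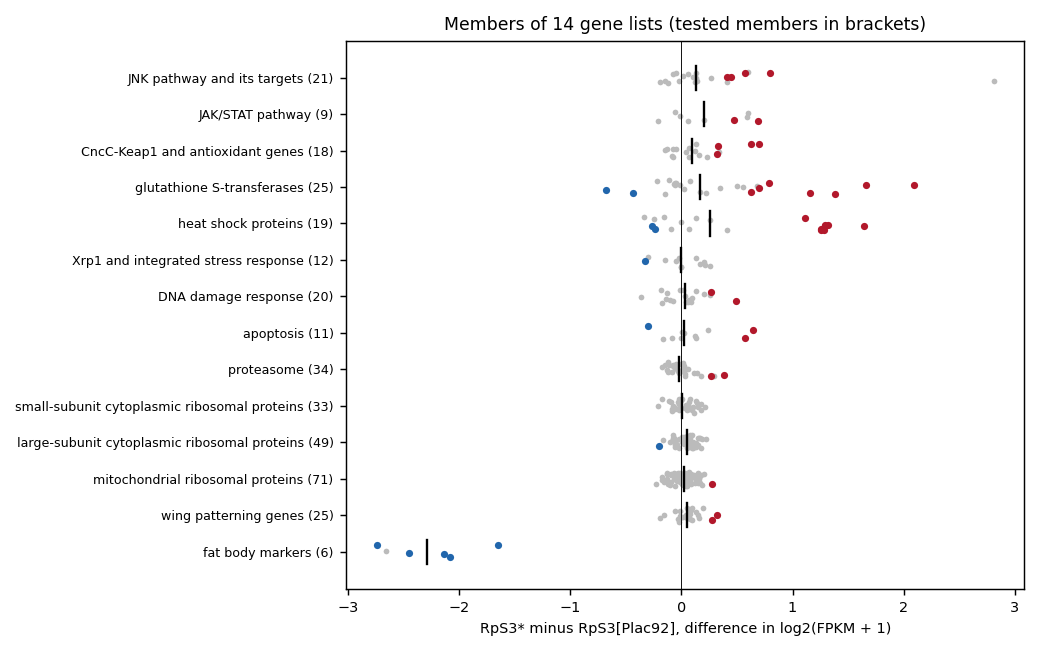
Difference between the alleles (RpS3* minus RpS3[Plac92], in log2(FPKM + 1)) for the tested members of 14 gene lists, 1 point per gene, with red points called higher, blue points called lower, grey points not called and a black bar at the median. Glutathione S-transferases and heat shock proteins spread to the right of 0, ribosomal protein genes stay near 0 and fat body markers lie left of 0.

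Ribosomal protein genes, the class to which RpS3 belongs, held few calls, where 6.02% of all genes were called. None of 33 tested small-subunit ribosomal protein genes was called by limma in either direction (7 had an unadjusted p under 0.05), and their median difference was 0.01. Of 49 tested large-subunit genes only RpL23 was called, lower in RpS3* discs (3148 and 2929 FPKM, against 3470 and 3520 FPKM, -0.20, adjusted p = 0.097), and of 71 mitochondrial ribosomal protein genes only mRpL28, higher (0.28, adjusted p = 0.088). The proteasome list had 2 of 34 genes higher (5.88% called, about the share of all genes). These were the 19S ATPase gene Rpt1 (187 and 171 FPKM, against 138.5 and 136 FPKM, 0.38, adjusted p = 0.026) and the 20S gene Prosbeta6 (0.26, adjusted p = 0.051). In the DNA damage list 2 of 20 genes were higher: PolZ1, the catalytic subunit of the translesion polymerase zeta, at 14.2 and 15.3 FPKM, against 10.9 and 9.53 FPKM (0.49, adjusted p = 0.035), and RnrL, a ribonucleotide reductase gene (0.27, adjusted p = 0.074). Among 11 tested apoptosis genes (27.3% called) rpr and Corp were higher and the caspase inhibitor gene Diap2 lower (-0.30, adjusted p = 0.078). Damm, a caspase gene chosen after its values were seen, was at 0.386 and 0.198 FPKM, against 1.61 and 1.53 FPKM (-0.997, adjusted p = 0.032).

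Insulin and TOR genes and Toll and Imd genes had no called member by limma among 14 and 16 tested, where 6.02% of all genes were called. In each list 2 had an unadjusted p under 0.05. Wing patterning genes had 2 of 25 higher (8.0% called, against 6.02% of all genes). These were the pouch genes nub (97.9 and 96.0 FPKM, against 77.1 and 83.3 FPKM, 0.27, adjusted p = 0.077) and rn (0.32, adjusted p = 0.049), which were also the 2 called among 7 wing disc markers (28.6%). Among 21 tested sensory organ and Notch target genes (9.52% called) Tom was higher (0.29) and Ocho, its relative in the Bearded family, lower (-0.37). The cuticle protein genes had 2 of 34 higher and 3 lower (14.7% called), the widest differences being those of Cpr47Eb (1.25) and Cpr65Ec (-1.63). Cpr47Eb passed the filter only through the RpS3* libraries, where it was high. Over the 20 pathway lists together 58 of 470 tested genes were called (12.3%, against 6.02% of all genes), 41 higher and 17 lower. The 58 include genes that passed the filter only through the allele in which they were high.

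Positions were taken from BDGP6.54 because the files give no coordinates. Of the 10 tested genes within 0.1 Mb of RpS3, 1 was called, CG42827, 12717 bp away. With so few genes, this bin cannot show whether calls there were rarer or more frequent than the 6.02% of all genes. Between 0.1 and 0.5 Mb 1 of 44 was called (2.27%). This was CG6726, which lay at 16.9 and 17.0 FPKM, against 22.6 and 21.6 FPKM (-0.37, adjusted p = 0.038). Between 0.5 and 1 Mb 9 of 132 were called (6.82%), between 1 and 5 Mb 23 of 475 (4.84%) and beyond 5 Mb 98 of 1221 (8.03%). By chromosome arm 7.01% of tested genes were called on 3R, 6.72% on 2R, 6.15% on 3L, 5.69% on 2L and 4.48% on X. Next in distance were CG13599 (-0.38), Cyp6d4 (0.43), Miro (-0.30), a mitochondrial GTPase gene, and CG5986 (-0.33).

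The called genes of 3R were densest far from RpS3. A stretch of 1.1 Mb (3R, 11954163 to 13051453), chosen after its values were seen, held 26 called genes of 90 tested (28.9%), 20 higher and 6 lower, against 106 of 1792 (5.92%) on the rest of the arm. It runs from Hsp70Aa through the GstD cluster and the Hsp70B cluster to rosy, Hsc70-2, CG31157 and CG7966. Both of its ends were set at called genes, which raises its share. Its called genes include Hsp70 and GstD paralogues that can share reads, so the 26 are not all separate measurements. In the GstD cluster 7 of 8 tested genes between 12360008 and 12376572 were higher in RpS3* discs, the 6 Gst genes above and CG4115. At its far end rosy was higher while the next 3 genes, Hsc70-2, CG31157 and CG7966, were lower, the last at 1.95 and 1.76 FPKM, against 7.62 and 7.92 FPKM (-1.62, adjusted p = 0.00051). A further run of 5 called genes on this arm included 4 rows of tarsal-less (tal), peptides of 1 shared transcript that count as a single measurement.

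**Figure D5:**
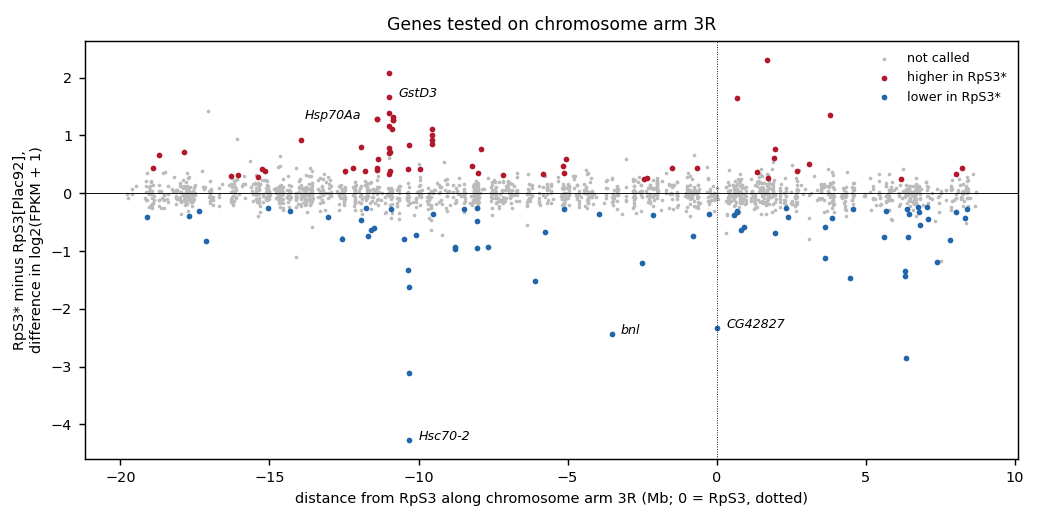
Difference between the alleles (RpS3* minus RpS3[Plac92], in log2(FPKM + 1)) of the genes tested on chromosome arm 3R against their distance from RpS3 in Mb, with RpS3 at 0 (dotted line). Red and blue points are genes called higher and lower in RpS3* discs, and a column of them stands about 10 to 11 Mb to the left of RpS3, around GstD3, Hsp70Aa and Hsc70-2.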

How the data were processed

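RNA of whole wing discs was sequenced by the authors, who deposited FPKM values per gene and library. The submitters' processing notes name BWA 0.6.2 and dm3. Runs of the same library were pooled by the authors. All 13955 genes were read, of which 13661 had a position in BDGP6.54 (Ensembl), whose coordinates are printed. Differences were fitted on log2(FPKM + 1) with limma 3.58.1 in R 4.3.3, with trended and robust variance and Benjamini-Hochberg adjustment over genes that reached 1 FPKM in 2 or more of the compared libraries, and a gene was called at an adjusted p under 0.1. FPKM are not counts, so no count model was run. An exact test of 2 against 2 libraries cannot go below p = 0.33. Named were RpS3, y, w and ry, the 12 largest called differences in each direction without overlap and up to 4 called members of each list in each direction. Also named were the 6 called genes nearest RpS3 and, whatever their test, 18 genes that include stress response genes, CG14072, Spn100A and Fbp1. The comparison, the gene lists and the named genes were chosen with earlier results of these data known, and further genes are named after their values were seen. Lists built on symbol prefixes left out the cyclophilins Cyp1 and Cyp40 and the P450 reductase Cpr. The alternatives were another threshold, pseudocount, filter, scaling and variance model, other libraries in the fit, a replicate block and each library left out. Those without WT4 and with crossed blocks were chosen after seeing the data. Shared replicate numbers were not taken as pairs, since the deviations of same-numbered libraries correlated at -0.25.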

Additional observations from a re-analysis of the deposited data

Results flagged for a closer look

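Values of the named genes were searched for WT libraries that stand far from the other 7 by Dixon's criterion, on the log2(FPKM + 1) scale. Chance alone marks about 1 group in 20, and 116 genes were searched. None of the values below enters the direct comparison of the alleles, and the sources of the differences were not tested.

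The library labelled WT4 stood highest for several genes that were lower in RpS3* discs than in RpS3 discs. It contained 17.8 FPKM of Hsc70-2, where the next WT library had 0.314 FPKM, 9.68 FPKM of CG31157 (next 0.134), 6.57 FPKM of CG7966 (next 3.24), 4.99 FPKM of Cyp6a17 (next 0.0373) and 0.796 FPKM of its paralogue Cyp6a23 (next 0.1). It was also highest for CG41284, at 6.53 FPKM (next 3.04), and Hsp83, at 1496 FPKM (next 1015). With its 26.3 FPKM of white, this library went against its yw label, while its RpS3 level of 2377 FPKM was within the range of the other WT libraries.

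WT6 was highest for Fbp2, at 67.6 FPKM (next 19.9), Diap2, at 35.4 FPKM (next 31.7), CG15784, at 20.9 FPKM, and sturkopf, at 43.2 FPKM (next 36.0). It was lowest for puc, at 10.7 FPKM (next 14.3), and cnc, at 18.3 FPKM (next 27.3). WT1 was lowest for the Hsp70 copies, at 0.837 FPKM of Hsp70Aa (next 24.6) and 0.894 FPKM of Hsp70Ab (next 24.0).

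The remaining cases were genes near 0 in WT, with 0.419 FPKM of CG11786 in WT2, 0.102 FPKM of CG18063, 0.0819 FPKM of RabX2 and 0.11 FPKM of can in WT5, and 0.035 FPKM of aly in WT3.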

How the results depend on the processing

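RpS3 mRNA kept its direction and did not pass under any alternative, with differences between the alleles of -0.07 to -0.04. The 472 genes called became 248 at an adjusted p under 0.05, 79 with all 19 libraries (78 without WT4), 45 with the WT libraries (55 without WT4), 242 without a filter and 291 without trend and robust options. Of the 79 and 45 genes, 74 and 42 were among the 472. The 58 pathway genes became 32, 17, 10, 36 and 38 under the same planned settings, and the 64 called signature genes became 38, 16, 15, 32 and 42. The other pseudocounts, the filter at 5 FPKM and the median-of-ratios scaling kept each of these 3 counts within 1.5 times. Called genes higher in RpS3* discs were 52.7% with that scaling, against 48.3% without it. Leaving out 1 library at a time gave 95 to 862 genes, 18 to 73 pathway genes and 16 to 127 signature genes, the lowest without RpS3 replicate 2 and the highest without RpS3* replicate 1. Fits that leave 1 library in a group assume that it varies like the other group, and the share called higher ran between 40.0% and 61.7%. The RpS3 libraries against WT gave 2380 genes instead of 1498 when all 19 libraries were fitted.

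With the replicate number as a block 277 genes, 40 pathway genes and 45 signature genes were called. Same-numbered libraries deviated in opposite ways (correlation -0.25), and the crossed pairing, chosen after seeing the data, called 1073 genes.

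No named gene reversed. Of the 97 named genes that were called, 55 lost the call with all 19 libraries and 65 with the WT libraries. When 1 library was left out, some lost the call and others no longer passed the filter and were not tested. With 2 libraries a group, small differences were at the limit of detection, and values near 0 FPKM rest on few reads. Intervals from depth would cover counting error only. Of 7837 genes, 1466 had an unadjusted p under 0.05.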

Other observations

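Outside the comparisons above, c-cup, a gene named for its late expression in the male germline, was at 4.08 and 4.47 FPKM in the RpS3* libraries, against 1.76 and 0.978 FPKM in the RpS3 libraries (1.17, limma adjusted p = 0.018), and was called in all 3 fits. RpS3puc libraries had 11.4 to 14.6 FPKM and WT libraries at most 0.073 FPKM. CG32354 was at 1.91 and 1.49 FPKM, against 5.85 and 6.5 FPKM (-1.42, adjusted p = 0.002), with RpS3puc at 6.93 to 8.18 FPKM and WT at 2.15 to 3.35 FPKM. CG6357, annotated only by its number, was at 11.2 and 7.20 FPKM, against 25.8 and 32.6 FPKM (-1.59, adjusted p = 0.073), with RpS3puc discs at 7.10 to 11.9 FPKM and WT discs at 19.6 to 32.3 FPKM. These genes were chosen after their values were seen.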
